A study of Homo sapiens with 12 samples.

Results

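The cytosolic ribosomal proteins were taken as the protein-coding rows on an autosome or the X chromosome whose symbol is RPL or RPS followed by a number, with at most a letter and further digits, together with RPLP0, RPLP1, RPLP2 and RPSA. This rule uses names only and chose 84 of the 58735 rows of the table. Of these, 52 belong to the large subunit by name and 32 to the small subunit, and 2 rows on the Y chromosome were left out. RNA sequencing was performed on NCM460, a cell line labelled as normal human colonic epithelium, in 12 libraries that fall into 4 groups of 3. The first group received medium. The second received TNF-α, a cytokine that drives inflammatory signalling in epithelial cells. The third received TNF-α and Bufotenidine, a quaternary indoleamine that the study calls 5-OH-TMT, and is written here TNF-α+Bufotenidine. These 3 groups carry the genotype WT. The fourth received TNF-α in cells labelled HTRA2 knockdown, and is called the knockdown below. HTRA2 is a serine protease of the mitochondrial intermembrane space. The labels give no dose and no duration.

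Each eukaryotic ribosome holds a copy of nearly every one of these proteins, assembled with ribosomal RNA in the nucleolus into a small subunit that reads the mRNA and a large subunit that joins amino acids. Their mRNAs are among the most abundant of any dividing cell, and most begin with a C followed by a run of pyrimidines, the terminal oligopyrimidine (TOP) tract, through which mTOR and LARP1 control their translation. Some members have a paralog that is expressed at a much lower level or in few tissues, and several have tasks outside the ribosome. RPL5 and RPL11 enter the ribosome bound to the 5S RNA, and RPSA is also known as a laminin receptor precursor.

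The values are FPKM, the fragments of a gene scaled by its length and by a divisor for the library, as the authors deposited them. The whole reads behind them could be recovered. The reads on genes were 0.949 to 1.032 of that divisor, so it was not the library's total of reads on genes. A library held 31008429 to 37624399 reads on genes. The labels do not say whether the 3 libraries of a group came from separate cultures, so the p-values measure only the spread between these libraries. HTRA2 itself lay at 14.0 to 15.4 FPKM with TNF-α and at 7.18 to 7.44 FPKM in the knockdown, and fell by 0.985 on the log2 scale (SE 0.0869, adjusted p = 2.77e-05). The study names a control siRNA for its comparison with HTRA2 siRNA, while the labels call the TNF-α libraries WT and name no siRNA. Whether these libraries received the control siRNA, and whether the knockdown libraries hold 1 siRNA or 3, is not stated, so a part of the transfection in the differences was not tested. Epithelial markers were high (KRT8 887 to 1315 FPKM) except KRT19 at 1.91 to 4.36 FPKM, the colon markers CDX2, VIL1, LGALS4, MUC2 and CDH17 lay at or near 0, the leukocyte markers reached at most 0.0879 FPKM, and KRT5, a basal keratin, lay at 112 to 184 FPKM. Knockdown library 2 stood apart the most. Its mitochondrial genome held 10.4% of the summed FPKM against 12.7% to 16.0% elsewhere, and its reads differed from those of knockdown libraries 1 and 3 by a chi-squared statistic of 31.4 and 40.8 per degree of freedom, against 6.87 between those 2. The part of these differences in the results below was not tested.

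RefSeq windows around the annotated transcript start (GRCh38.p14) were at hand for 67 of the 84 members. A TOP tract was searched on the transcribed strand as a C followed by at least 4 pyrimidines, with the C within 5 bases of the start. It was found in 54 of the 67 members, or 80.6%, against 25.2% of the 27305 genes in the same table. Below, 30 bases around the start of 8 members picked by name are shown, with the tract in capitals. All 8 are named in the comparisons, and called and uncalled members are among them. For RPL11, with 2 windows, the one with the longest tract is shown. RPL5 has no window.
RPL24 (chr3:101686699-101686728, minus strand): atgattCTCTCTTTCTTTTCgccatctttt
RPSA (chr3:39406710-39406739, plus strand): tgccgcctgtCTTTTCCgtgctacctgcag
RPS6 (chr9:19380217-19380246, minus strand): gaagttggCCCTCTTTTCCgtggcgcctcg
RPL11 (chr1:23691796-23691825, plus strand): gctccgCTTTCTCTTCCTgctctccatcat
RPL13A (chr19:49487598-49487627, plus strand): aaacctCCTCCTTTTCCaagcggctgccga
RPL22L1 (chr3:170870176-170870205, minus strand): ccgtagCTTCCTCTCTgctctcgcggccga
RPL7L1 (chr6:42879606-42879635, plus strand): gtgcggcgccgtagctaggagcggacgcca
RPS26 (chr12:56041908-56041937, plus strand): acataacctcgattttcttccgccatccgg
RPL24, RPSA, RPS6, RPL11, RPL13A and RPL22L1 hold the tract, while RPL7L1 and RPS26 do not under this definition. The pyrimidine run of RPS26 begins with T, and its first C lies beyond the 5 bases allowed.

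The members differed widely in level. Mean FPKM over the 12 libraries was at least 100 for 62 members, at least 10 for 75 and at least 1 for 80. The highest was RPL8, a protein of the large subunit, with a mean of 2226 FPKM and 1728 to 2749 FPKM over the libraries. It was followed by RPS2 of the small subunit at 1499 FPKM and by RPL41, the shortest ribosomal protein, at 1132 FPKM. The lowest were RPL10L, a paralog known from testis, for which no read was found in any library, which allows up to 3 reads in each, then RPL3L, a paralog known from muscle, at 0.283 FPKM (10 to 40 reads), and RPS10 at 0.638 FPKM (21 to 79 reads).

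The order of the levels depends on the gene length in the table. For 84 of 84 members this length equals the union of the exons of all transcripts in GENCODE 29, which was a median of 3.5 times, and up to 33.3 times, the shortest principal mRNA. On the scale of reads per kilobase of that mRNA, RPL8 and RPS2 kept ranks 1 and 2, RPL41 moved to rank 7, and RPL10L, RPL3L and RPS10 kept the last 3 ranks. Exon sequence shared with other rows occurred at low and at high levels. RPS10 shares 39.4% of its exon bases with the read-through row RPS10-NUDT3, RPL17 (mean 1.23 FPKM) shares 24.8% with RPL17-C18orf32, and RPL36A (mean 0.662 FPKM) shares 8.4% with RPL36A-HNRNPH2. These read-through rows held 0 FPKM in every library. Whether reads on shared exons were left out of the counts was not tested, so the levels of RPS10, RPL17 and RPL36A are uncertain. The overlaps of the high members were of another kind. RPS2, at rank 2, shares 14.6% with its most overlapping row, a pseudogene. RPL13A (mean 671 FPKM) shares 17.3% with other rows in all, and its most overlapping row is the snoRNA SNORD35A. Pseudogene rows named after members numbered 1144, for 77 of the members, and held 3.11 to 3.46 reads per 100 reads on members. For RPS10 they held 388 reads per 100 reads on the gene itself, for RPS28 93.7 and for RPL26 51.5, so the levels of these members are uncertain.

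The 4 groups did not share the members' reads evenly. The members took 8.27%, 9.16% and 8.57% of all reads on genes in medium, and 8.27%, 7.83% and 8.27% with TNF-α. With TNF-α+Bufotenidine they took 8.36%, 8.35% and 7.84%, and in the knockdown 6.82%, 7.13% and 6.92%. The knockdown libraries lay below all 9 others. As a share of the summed FPKM the means were 10.4% ± 0.448 in medium, 9.92% ± 0.372 with TNF-α, 9.97% ± 0.292 with TNF-α+Bufotenidine and 8.81% ± 0.438 in the knockdown (SD, n = 3). These means differed by -0.434 percentage points for TNF-α minus medium, by 0.0449 for TNF-α+Bufotenidine minus TNF-α and by -1.11 for the knockdown minus TNF-α. The first 2 were within about 1 SD of the libraries and the last was over 2 SD. The first was -0.188 without medium library 2 and -0.221 without TNF-α library 2. With 1 library left out the second ran from -0.168 to 0.212, so its sign is not firm, and the last from -1.36 to -0.977. These shares are relative, so where the members take less of the total, the other genes together take more. In bulk RNA less RNA per cell and fewer cells of a kind cannot be told apart.

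**Figure D1:**
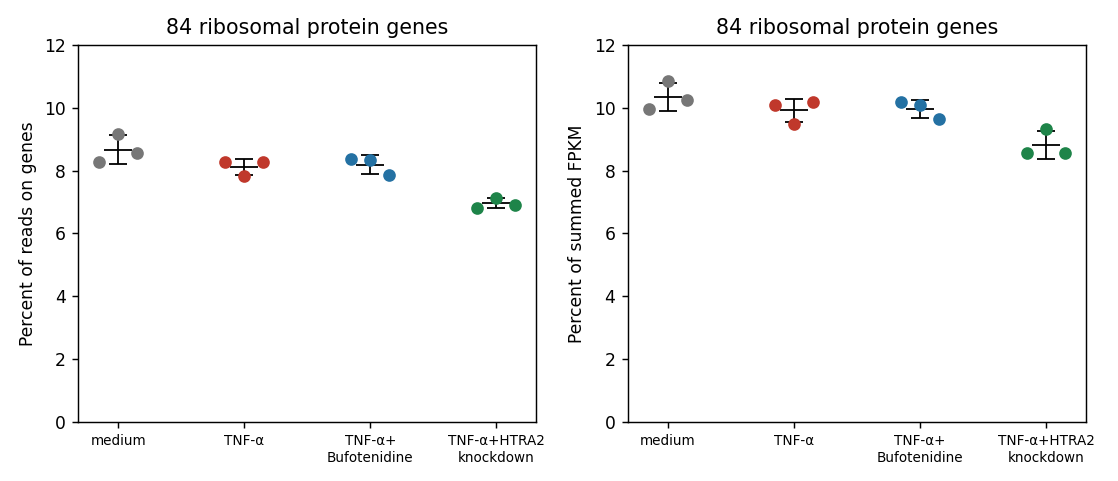
Share of the 84 ribosomal protein genes in each library, as percent of reads on genes (left) and percent of summed FPKM (right). Points are libraries, bars the mean ± SD of 3. The knockdown libraries lie at 6.82% to 7.13% of reads and the others at 7.83% to 9.16%.

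Among the 80 members with a mean of at least 1 FPKM, the lowest of the 12 libraries was a knockdown library for 75 members and the highest a medium library for 60. Medium library 2 alone was highest for 48. It lay above the member's own mean for 77 of the 80, by a median of 0.194 on the log2 scale. Knockdown libraries 1, 2 and 3 lay below it for 79, 63 and 76 members. Knockdown library 2 was both the highest of its group for 31 members and the lowest for 36, and the members with an SD over 0.2 (log2) within their group numbered 16 in the knockdown, 6 in medium and 1 in each of the other groups. The largest SD over all 12 libraries belonged to RPL22L1 (0.320), RPS26 (0.309) and RPL26 (0.289). The counts of this paragraph were not made over all genes, so they do not separate the members from the library as a whole. Medium library 2 also had the largest summed FPKM of the 12 libraries, 307734.

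**Figure D2:**
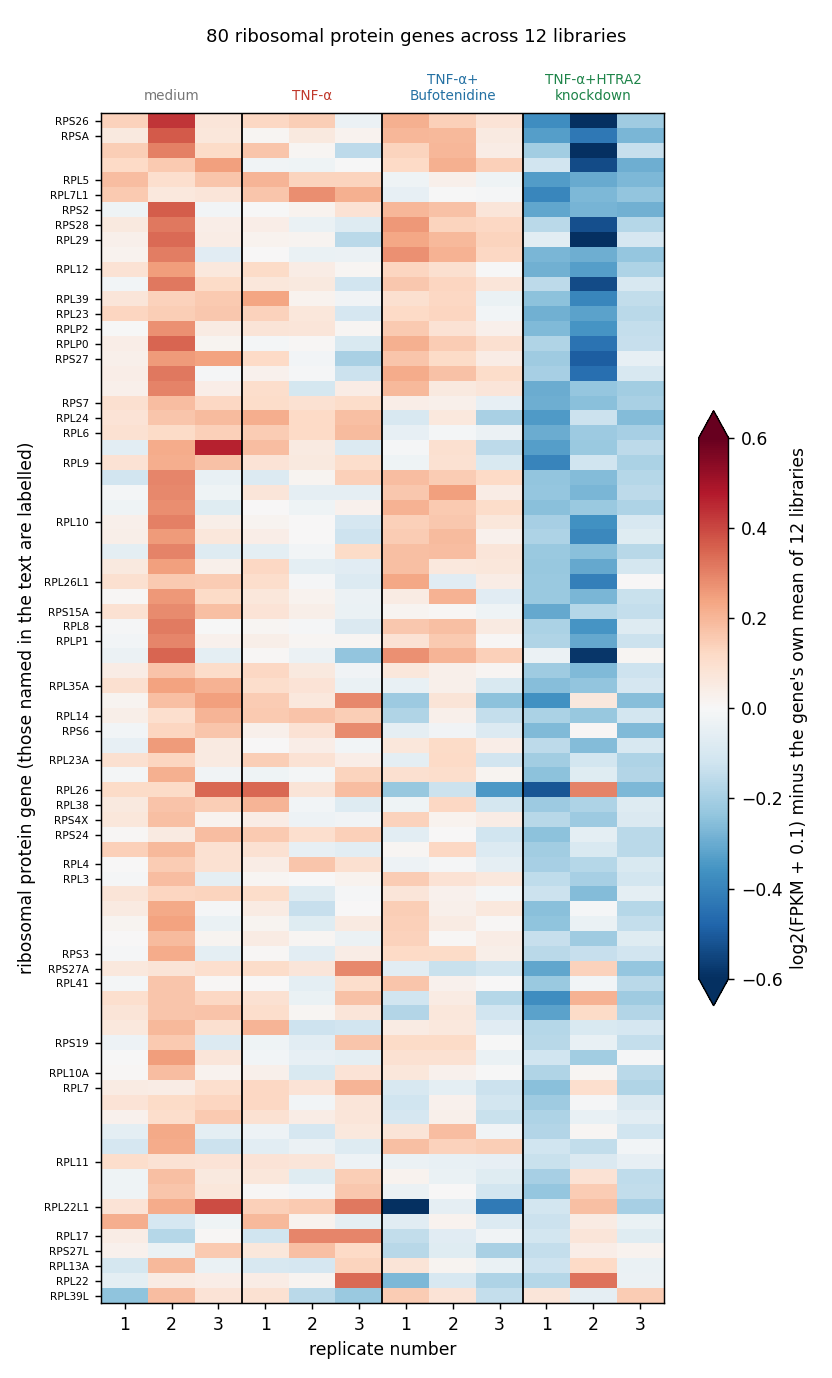
log2(FPKM + 0.1) of 80 ribosomal protein genes (rows) in 12 libraries (columns, replicate number below, group above), each as the difference from the gene's own mean, with rows ordered by the knockdown mean and colours limited at ±0.6. The knockdown columns are mostly blue, medium 2 is mostly red, and knockdown 2 has 17 members above their own mean.

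The first comparison asked how TNF-α changed these mRNAs. No member passed the test: 0 of 83 tested were called at an adjusted p under 0.05, where 4.1% of the 18079 genes tested were called in either direction, and 2 members had an unadjusted p under 0.05, both lower, where 14.8% of all genes had one and 5.92% were lower. By voom on the recovered reads 0 were called as well, where 4.77% of all genes were. The median log2 fold change of the members was -0.07 against -0.002 over all genes, and 66 of 83 were negative. The median was -0.02 without medium library 2, so its size rests on that library.

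The scaffold of the ribosomal stalk, RPLP0, which recruits translation factors, showed the small size of these differences. It lay at 1033, 1280 and 1019 FPKM in medium and at 998, 1011 and 944 FPKM with TNF-α, which did not overlap, with a log2 difference of -0.17 (SE 0.11, adjusted p = 0.53). RPS27, a zinc-finger protein of the small subunit, lay at 412, 481 and 476 FPKM in medium and at 438, 398 and 353 FPKM with TNF-α (log2 -0.21, adjusted p = 0.46), and those libraries overlapped. RPL7L1, a paralog of RPL7 that acts in the assembly of the large subunit, lay at 34.9, 32.7 and 32.9 FPKM in medium and at 35.1, 38.0 and 36.2 FPKM with TNF-α (log2 0.12, adjusted p = 0.39). The muscle paralog RPL3L had 25, 40 and 27 reads in medium and 23, 11 and 10 with TNF-α, at a log2 difference of -0.81 (SE 0.29, adjusted p = 0.17).

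The second comparison asked what Bufotenidine added to TNF-α. Again 0 of 83 members were called, where 0.0387% of all genes were, which is 7 genes. In all, 16 members had an unadjusted p under 0.05, 13 lower and 3 higher, where 20.1% of all genes had one and 10.5% were lower, so the count lies near the background. The median log2 fold change was 0.04 against 0 over all genes, and 35 members were negative and 48 positive. This sign is not firm: the median was -0.02 after quantile normalization and -0.001 with each library scaled to a fixed sum. Fitting only these 2 groups called 2 members, 1 in each direction, where 5.04% of all genes were called, and voom on the reads called 2, both lower, where 1.31% were.

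RPL22L1, which with its paralog RPL22 forms a pair known to regulate each other, had the lowest log2 fold change of the members here. It lay at 7.25, 7.32 and 8.21 FPKM with TNF-α and at 3.97, 6.33 and 4.86 FPKM with TNF-α+Bufotenidine, with no overlap (log2 -0.60, SE 0.15, adjusted p = 0.099). RPL22 lay at 16.8, 16.5 and 20.6 FPKM and at 13.4, 15.2 and 14.3 FPKM, also without overlap (log2 -0.32, SE 0.12, adjusted p = 0.18). Neither passed the threshold, and the 3 TNF-α+Bufotenidine libraries spread over a wider range of RPL22L1 than those of any other group. RPL26, which lies near the exit of the peptide tunnel, lay at 9.004, 7.47 and 8.05 FPKM with TNF-α and at 6.03, 6.45 and 5.54 FPKM with TNF-α+Bufotenidine (log2 -0.44, SE 0.17, adjusted p = 0.18). RPS27L, a paralog of RPS27, lay at 3.23, 3.49 and 3.34 FPKM and at 2.72, 2.92 and 2.67 FPKM (log2 -0.27, SE 0.089, adjusted p = 0.14). For both genes all 3 TNF-α+Bufotenidine libraries lay below all 3 TNF-α libraries.

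**Figure D3:**
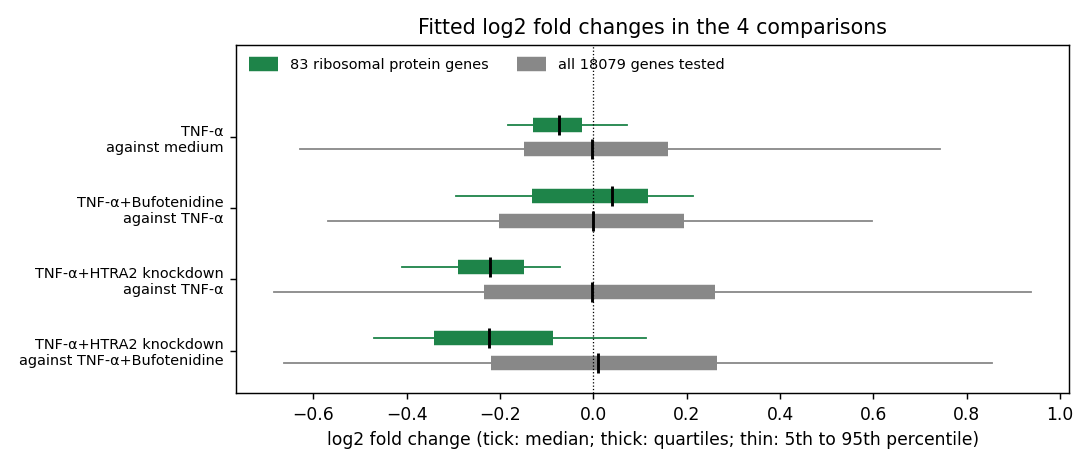
Fitted log2 fold changes of the 83 tested ribosomal protein genes (green) and of all 18079 genes tested (grey) in 4 comparisons. Ticks are medians, thick bars quartiles and thin lines the 5th to 95th percentile. The members' median is -0.07, 0.04, -0.22 and -0.22 from top to bottom, and the TNF-α libraries are shared by the first 3 comparisons.

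The third comparison asked what HTRA2 knockdown did under TNF-α. Here 22 of 83 members (26.5%) fell and 0 rose at an adjusted p under 0.05, where 8.08% of all genes tested were lower and 9.35% higher. The median log2 fold change of the members was -0.22, a fold of 0.858, against -0.003 over all genes, and 80 of 83 were negative. All 3 knockdown libraries lay below all 3 TNF-α libraries for 46 members (55.4%), against 16.4% of all genes. The changes were small: no member reached a fold change of 2. The subunits were alike in median, with 14 of 51 large-subunit members called (median -0.22) and 8 of 32 small-subunit members (median -0.22).

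Abundant genes were called more often in general. Of the 333 other genes with a mean of at least 100 FPKM, 21.0% were lower (median -0.11), against 27.4% of the 62 members at that level (median -0.22). The count also depended on single libraries. It was 14 without TNF-α library 1 (13 of them lower), 11 without TNF-α library 2 and 12 without knockdown library 1. It was 25 without knockdown library 2, the one that stood apart the most. By voom on the reads 45 members were lower, where 9.62% of all genes were, and by a fit of only these 2 groups 13, where 4.93% were. With each library scaled to the sum of the genes that are not members, so that the members do not weigh on their own scale, 21 were lower and the median was -0.20.

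**Figure D4:**
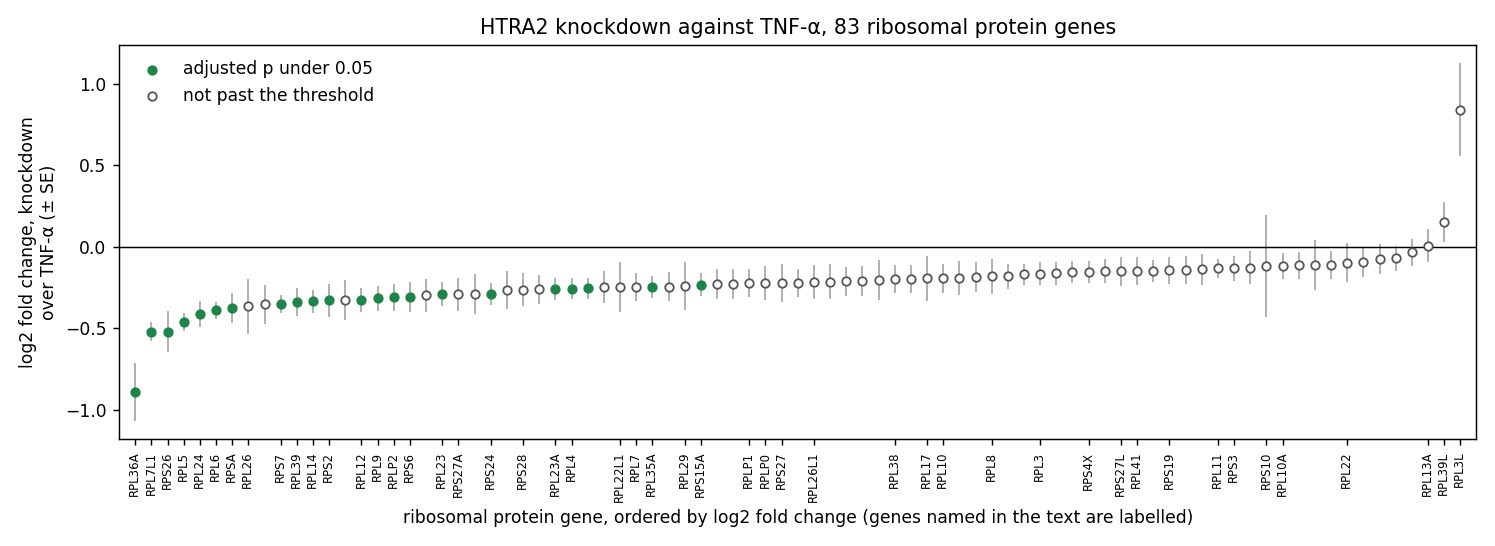
log2 fold change of the knockdown over TNF-α for 83 ribosomal protein genes, in rank order, with SE bars from the fit on all 12 libraries. Filled points are the 22 genes with an adjusted p under 0.05, all of them below 0, and 3 genes (RPL13A, RPL39L and RPL3L) lie above 0.

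RPL5 and RPL11, which enter the ribosome together with the 5S RNA, did not both pass the test. RPL5 (chr1:92831983-92841924, hg38) lay at 273, 260.2 and 260.1 FPKM with TNF-α and at 188, 192 and 197 FPKM in the knockdown. It fell by 0.46 on the log2 scale (SE 0.055, adjusted p = 1.82e-04), and remained called under all 12 alternatives with all libraries and with any of the 6 libraries left out. RPL11 lay at 338, 335 and 312 FPKM and at 290.1, 299.8 and 308 FPKM, also without overlap, at a log2 difference of -0.13 (SE 0.056, adjusted p = 0.13). The ratio of RPL5 to RPL11 in FPKM was 0.777 to 0.832 with TNF-α, 0.750 to 0.788 in medium, 0.749 to 0.784 with TNF-α+Bufotenidine and 0.638 to 0.647 in the knockdown. The knockdown libraries had the 3 lowest ratios of the 12, and the difference between the 2 genes was not tested.

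The stalk proteins lay lower together, but 1 of the 3 was called. RPLP2 lay at 299.1, 298 and 286 FPKM with TNF-α and at 236, 222 and 257 FPKM in the knockdown, and fell by 0.31 on the log2 scale (SE 0.082, adjusted p = 0.022). RPLP1 lay at 392, 386 and 386 FPKM and at 338, 309.8 and 350.5 FPKM (log2 -0.22, SE 0.085, adjusted p = 0.094). RPLP0 lay at 887, 739 and 916 FPKM in the knockdown (log2 -0.22, SE 0.11, adjusted p = 0.18). None of the 3 overlapped with TNF-α. Leaving out 1 library at a time, RPLP2 kept its call in 2 of 6 cases.

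In the small subunit, RPS26, which lines the mRNA exit channel, lay at 206, 209.6 and 184 FPKM with TNF-α and at 146, 113 and 163 FPKM in the knockdown, and fell by 0.52 (log2, SE 0.13, adjusted p = 0.015). RPSA lay at 736, 759 and 740.1 FPKM with TNF-α and at 580.4, 542 and 604 FPKM in the knockdown, and fell by 0.37 (SE 0.090, adjusted p = 0.014). RPS6, the substrate of the kinases downstream of mTOR, lay at 272, 282 and 324 FPKM and at 222, 268 and 221 FPKM, and fell by 0.31 (SE 0.091, adjusted p = 0.038). Knockdown library 2 was the lowest of its group for RPS26 and RPSA and the highest for RPS6. RPS3, which has a DNA repair activity, and RPS19, the gene most often mutated in Diamond-Blackfan anaemia, did not pass the test. Their log2 differences were -0.13 (adjusted p = 0.26) and -0.14 (adjusted p = 0.27). RPS27A, which is made as a fusion with ubiquitin, differed by -0.29 (SE 0.10, adjusted p = 0.072), and knockdown library 2 at 288 FPKM overlapped the TNF-α libraries at 275 to 319 FPKM. RPS15A (log2 -0.23, adjusted p = 0.043) was among the called members with the smallest changes. RPS26 lost its call without TNF-α library 1 or 2, and RPSA without TNF-α library 2. Of the 12 alternatives with all libraries RPS6 kept its call in 6 and RPS15A in 7, and with 1 library left out each kept it in 2 of 6 cases.

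In the large subunit, RPL7L1 fell by 0.52 (SE 0.060, adjusted p = 1.55e-04), from 35.1, 38.0 and 36.2 FPKM with TNF-α to 23.8, 25.9 and 26.5 FPKM. RPL24, a protein at the interface of the subunits, fell by 0.41 (SE 0.079, adjusted p = 0.0038), from 311, 289.9 and 303 FPKM to 211, 245 and 223 FPKM. Both remained called under all 12 alternatives and with any library left out. RPL4, which lines the peptide exit tunnel, and RPL35A fell by 0.26 (adjusted p = 0.016) and 0.25 (adjusted p = 0.030), where RPL4 lost its call without TNF-α library 2 or knockdown library 1, and RPL35A kept its call in 8 of 12 alternatives and 2 of 6 cases with a library left out. RPL10A, RPL38 and RPL41 were not called, at log2 differences of -0.12, -0.20 and -0.15 and adjusted p of 0.35, 0.13 and 0.28. RPL13A, known for its part in the interferon-γ controlled silencing of inflammatory mRNAs, lay at 625.1, 624.7 and 734 FPKM with TNF-α and at 615, 728 and 651 FPKM in the knockdown. Its log2 difference was 0.008 (95% interval -0.21 to 0.23, adjusted p = 0.97), and the sign turned with voom and with any of 3 libraries left out. RPL36A, chosen after its values were seen because it had the lowest log2 fold change of all members, fell by 0.89 (SE 0.18, adjusted p = 0.0048), from 102, 108 and 117 reads to 53, 51 and 59 reads. Its mean was only 0.662 FPKM, it shares exons with a read-through row, and its pseudogene rows held 11.9 reads per 100 of its own. The called members not named so far were RPL6, RPS7, RPL14, RPS2, RPL12, RPL9, RPL23, RPS24 and RPL23A, which fell by 0.26 (RPL23A) to 0.39 (RPL6).

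**Figure D5:**
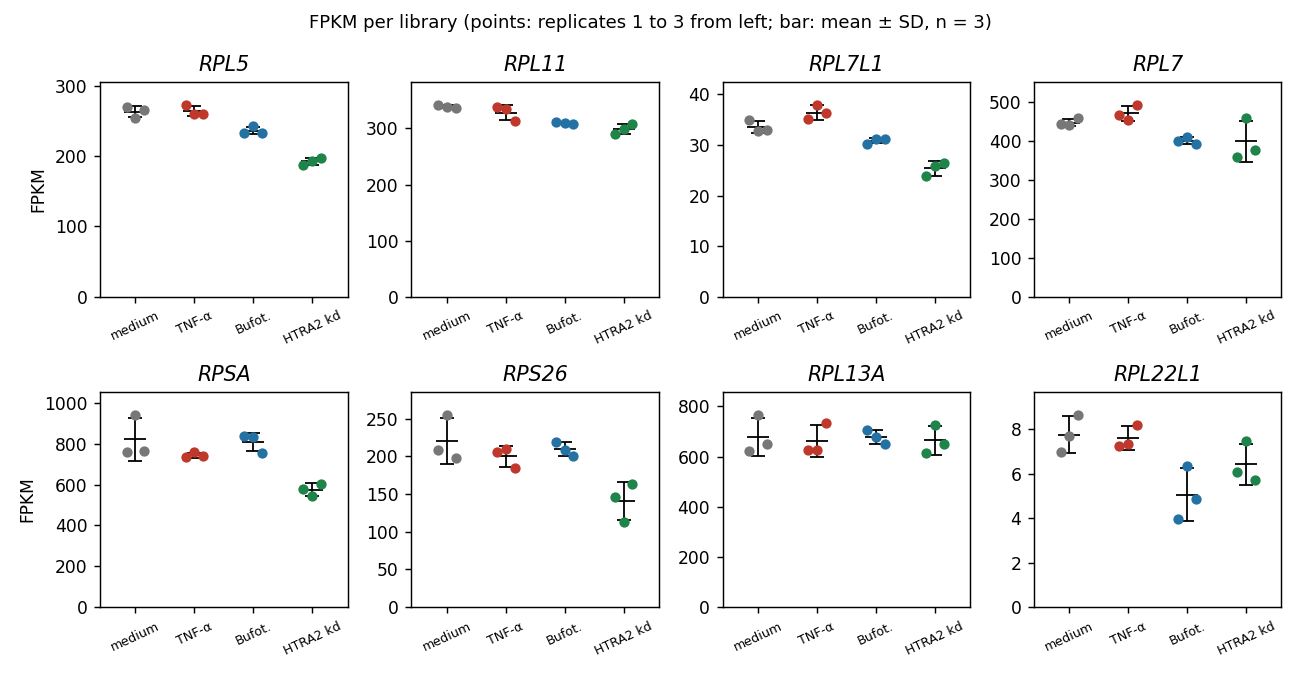
FPKM of 8 ribosomal protein genes in each library (Bufot. is TNF-α+Bufotenidine, HTRA2 kd the knockdown), with the mean ± SD of 3. RPL5, RPL7L1, RPSA and RPS26 are lowest in all 3 knockdown libraries, RPL13A overlaps between all groups, and RPL22L1 is lowest in TNF-α+Bufotenidine libraries 1 and 3.

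Within some paralog pairs 1 gene was called and the other was not. RPL39, a small protein of the exit tunnel, fell by 0.34 (SE 0.086, adjusted p = 0.017), from 270.0, 232 and 226 FPKM to 193, 175 and 207 FPKM, and was not called without TNF-α library 1. Its paralog RPL39L lay at 32.6, 27.4 and 26.2 FPKM with TNF-α and at 32.1, 29.5 and 34.0 FPKM in the knockdown (log2 0.15, SE 0.12, adjusted p = 0.43). The ratio of RPL39L to RPL39 was 0.116 to 0.121 with TNF-α and 0.164 to 0.169 in the knockdown, without overlap, and 0.107 to 0.139 in the other 6 libraries. Beside RPL7L1, its paralog RPL7 differed by -0.25 (SE 0.085, adjusted p = 0.068), and their ratio was 0.0734 to 0.0837 with TNF-α and 0.0564 to 0.0701 in the knockdown. RPL3L had 39, 33 and 30 reads in the knockdown against 23, 11 and 10 with TNF-α (log2 0.84, SE 0.29, adjusted p = 0.064), while RPL3 differed by -0.16 (adjusted p = 0.13). RPL22, RPL22L1, RPS27, RPS27L, RPL26 and RPL26L1 were not called, with log2 differences of -0.10, -0.25, -0.22, -0.15, -0.36 and -0.22, and RPL10 differed by -0.19 (adjusted p = 0.16). The differences between paralogs were not tested.

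In the knockdown, the 54 members with a TOP tract at the RefSeq start had a median of -0.21 (log2), and 12 were called lower. The 12 tested without one had a median of -0.26, and 4 were called lower. Lower were 8.08% of all genes tested and 21.0% of the 333 other genes with a mean of at least 100 FPKM. The 17 members without a window are in neither group, and the difference between the groups was not tested.

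Set directly against TNF-α+Bufotenidine, the knockdown was lower for 32 of 83 members (38.6%), where 7.43% of all genes tested were lower, and 0 members were higher. Abundant genes were again called more often. Of the 333 other genes with a mean of at least 100 FPKM, 27.9% were lower (median -0.15). At that level 46.8% of 62 members were lower (median -0.24). The fold changes here do not use the TNF-α libraries, while the error comes from all 12 libraries, and a fit of only these 2 groups called 17, where 4.74% of all genes were lower. The median of the members was -0.22 against 0.01 over all genes, with 74 of 83 negative. It was -0.115 after quantile normalization and -0.139 with each library scaled to a fixed sum, with 62 negative in each case, and the median of all genes then lay at -0.0209 and 0.0868. RPS26 fell by 0.59 (SE 0.13, adjusted p = 0.011), from 219, 209.1 and 200.2 FPKM to 146, 113 and 163 FPKM. RPSA fell by 0.49 (SE 0.090, adjusted p = 0.0044), from 837, 835 and 757 FPKM to 580.4, 542 and 604 FPKM. RPL29 fell by 0.47 (adjusted p = 0.0499), with knockdown library 2 at 329 FPKM beside 507 and 493 FPKM. Among the called members with the smallest changes were RPS7 (-0.25), RPS4X (-0.22) and RPL6 (-0.21). RPS7 kept its call in all 12 alternatives and all 6 cases with a library left out, RPS4X in 4 and 1, RPL6 in 5 and 2, and RPL29 in 6 and 2. The count fell to 7 without TNF-α+Bufotenidine library 1, to 11 without library 2, and to 16 without knockdown library 1 or 2.

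Other genes of the translation apparatus were counted in the same fit, from lists written with earlier results known. Among ribosome partners outside the naming rule, FAU, which encodes RPS30 fused to a ubiquitin-like protein, fell in the knockdown by 0.29 (SE 0.080, adjusted p = 0.029), from 140.3, 137 and 140.5 FPKM to 113, 108 and 123 FPKM. RACK1 and RPL36AL were not called, at -0.21 and 0.05. Of 39 ribosome biogenesis factors tested, 24 fell and 0 rose in the knockdown, with a median of -0.36. Over all genes tested, 8.08% were lower and 9.35% higher, and these shares apply to each list counted in the knockdown here and below. NOP56, a core protein of the box C/D particles that guide methylation of ribosomal RNA, fell by 0.82 (SE 0.099, adjusted p = 2.01e-04), from 18.0, 22.1 and 18.8 FPKM to 10.7, 10.4 and 12.2 FPKM. Its methyltransferase partner FBL fell by 0.54 (SE 0.066, adjusted p = 2.12e-04), from 82.2, 83.5 and 82.2 FPKM to 55.2, 59.3 and 56.0 FPKM. BOP1 and DKC1, which act in the maturation of ribosomal RNA, fell by 0.80 and 0.56. Of 11 snoRNA host RNAs, 7 fell (median -0.35), SNHG1 by 0.78 (adjusted p = 1.41e-04).

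Of 16 further genes with a TOP start tested, mostly translation factors, 3 fell in the knockdown (median -0.14). Lower were 8.08% of all genes tested and 21.0% of the 333 other genes with a mean of at least 100 FPKM. Among the 3 were EEF1B2, which fell by 0.27 (adjusted p = 0.0077), and VIM, the intermediate filament protein vimentin, which fell by 1.68. Of 78 mitochondrial ribosomal proteins, which are made in the cytosol and serve the organelle's own ribosomes, 28 fell (median -0.26), MRPL3 by 0.45 (adjusted p = 5.66e-04). Of 18 regulators of these mRNAs, 3 fell (TIAL1, CNBP and HNRNPD) and MYCN rose by 1.14 at a low level, from 0.335, 0.431 and 0.350 FPKM to 0.927, 1.07 and 0.833 FPKM. MYC and LARP1 differed by 0.05 and 0.03 and were not called. Of 177 pseudogene rows tested, 8 were lower and 2 higher (median -0.19), both smaller shares than the 8.08% and 9.35% over all genes. With TNF-α against medium, and with Bufotenidine added, none of these lists had a called gene by limma except the mitochondrial protein gene MRPS24 and 2 pseudogene rows, all higher with TNF-α. The biogenesis factors had a median of -0.26 with Bufotenidine added, with 19 of 39 at an unadjusted p under 0.05, where 20.1% of all genes had one.

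Over the 12 libraries, the genes outside the rule that ran most like the mean of the 75 members with at least 10 FPKM were ATP5F1B (Pearson r = 0.974), NDUFS6 (0.969), CENPX, MRPL11 and the pseudogene RPS2P5 (each 0.968), out of 4088 candidates. These correlations describe points that share groups, library scaling and, for RPS2P5, sequence.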

How the data were processed

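Total RNA of NCM460 cells was poly(A)-selected and sequenced, and the authors deposited FPKM values, 1 column a library, beside the length of each gene. The submitters' processing notes name CASAVA 1.8, HISAT2 2.0.4, HTSeq 0.9.1 and the build hg38, while the strand setting of the counting is not given in the sources used here. Gene identifiers and coordinates were the same as in GENCODE 29 for 100% of all rows, after rounding. Members and gene lists were chosen with earlier results of these data known.

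FPKM times length over the library's step gave whole reads for 100% of values (tolerance 0.02). These 31008429 to 37624399 reads per library set the counting precision. With R 4.3.3 and limma 3.58.1 (lmFit, eBayes with trend), 1 model of 4 group means took log2(FPKM + 0.1) of all 18079 genes whose mean reached 0.1 FPKM, with two-sided tests and Benjamini-Hochberg adjustment over all of them. Fold changes are on this log2 scale, which understates changes of low genes. Of the 84 members, 83 passed that filter. Calls have an adjusted p under 0.05. The fit was run on simulated data with planted changes larger than those of the members, so that run does not bear on changes of their size.

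Named members were the 4 highest and 4 lowest called members per comparison (mean of at least 1 FPKM), members fixed by role or as paralogs, and the extremes of level and spread. Some genes that the rule names are not reported here. Alternatives were 2 pseudocounts, 2 filters, 4 scalings, the replicate number as a block, no eBayes trend, only the 2 groups compared, voom on the reads, and each library left out. Of the scalings, the one by the median of ratios between libraries hardly changed the deposited values. In the knockdown against TNF-α it called 3153 genes, where the main fit called 3152. Its agreement with the main fit therefore adds little. The order of levels over the shortest principal mRNA was added after seeing the data. Coordinates of the start windows are those of RefSeq on GRCh38.p14, and gene coordinates those of the table. No protein sequences were used here. The authors' table held no columns of fold changes or p-values.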

Additional observations from a re-analysis of the deposited data

How the results depend on the processing

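With 83 members and 3 libraries a group, small differences of single members are limited by the spread between libraries and, for RPL3L (10 to 40 reads), RPS10 (21 to 79) and RPL36A (51 to 117), also by read depth. The direction of the members' median in the knockdown held under every alternative run. The number of members called in the knockdown against TNF-α was 22, and 13 with only the 2 groups compared, 45 with voom on the reads, and 11 to 25 with a library left out. Against TNF-α+Bufotenidine it was 32, and 12 with no filter on low values, 18 without the trend, 17 with only the 2 groups, and 7 to 35 with a library left out. The replicate numbers of the labels did not pair the libraries: over 18 pairs with the same number the correlation of the deviations was -0.104 to 0.0382. With the replicate block, 19 members were called in the knockdown against TNF-α and 19 against TNF-α+Bufotenidine, with 0 in the other comparisons. With Bufotenidine added, 2 members were called with only the 2 groups compared and 2 with voom, and the median was -0.021 after quantile normalization. With TNF-α against medium 0 were called under every alternative. Left-out libraries gave a median of -0.10 to -0.02 for TNF-α, 0.009 to 0.069 for Bufotenidine and -0.25 to -0.20 for the knockdown. RPL13A turned to -0.00017 with voom and lay at -0.060 to 0.085 with a library left out, and RPL22 at -0.24 to 0.0085. The causes were not tested.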
